A study of Mus musculus with 19 samples.

Results

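Voltage-gated sodium and calcium channels were followed through the RNA of retinal ganglion cells that project to the same side of the brain (iRGCs) and to the opposite side (cRGCs). The 40 genes are all protein-coding genes of the count tables, in the GRCm38 annotation, whose symbol names a sodium channel α or β subunit (Scn followed by a number and a or b) or a calcium channel α1, α2δ, β or γ subunit (Cacna1, Cacna2d, Cacnb and Cacng). They are 40 of the 47069 genes in the tables, 14 of them for sodium channels and 26 for calcium channels, and the rule uses symbols and gene type alone. Polyadenylated RNA came from GFP-positive cells sorted from dissociated E16.5 mouse retinas (E for embryonic day), with male and female embryos pooled. In the iRGC libraries, Cre was driven by regulatory sequence of the serotonin transporter gene Slc6a4 (the ET33 Sert-Cre transgenic line). In the cRGC libraries it came from a Cre gene placed in the Pou4f2 (Brn3b) locus, and the ventrotemporal part of the retina, where ipsilateral cells arise, had been cut away. Both populations carried the reporter Sun1-GFP in the Rosa26 locus, a nuclear envelope protein fused to GFP and made after Cre removes a stop cassette. The reporter therefore marks every cell in which Cre has been active and all descendants of such a cell, whatever they later become. The labels give the strain as C57/DBA F1 and the genotype as WT for all libraries, and they do not tell whether the replicates came from separate litters, so p-values measure the spread between these libraries only.

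Each population had 3 libraries, with 28193178, 29759011 and 30874653 reads counted on genes in iRGCs 1 to 3 and 28274471, 30454674 and 33638083 in cRGCs 1 to 3. Levels are given as CPM, counts scaled to a common library size after TMM normalization, and always in the order of replicates 1, 2 and 3. Different genes are compared only as CPM per kilobase of exon. Log2 fold changes are those of iRGCs over cRGCs with their SE, so a negative value means less in iRGCs. Genes passed the threshold when their adjusted p-value fell below 0.1 in edgeR's quasi-likelihood test, with Benjamini-Hochberg adjustment over all 15941 genes tested, and were differentially expressed genes (DEGs) if the log2 fold change also exceeded 1 in size. Genes that define the populations were checked first. Zic2, the transcription factor of ipsilateral cells, was at 133, 173 and 157 CPM in iRGCs and 57.01, 60.2 and 65.7 CPM in cRGCs (log2 fold change 1.34 ± 0.13 (SE), edgeR adjusted p = 0.000209). Slc6a4 was at 2.06, 33.4 and 116 CPM in iRGCs and 48.1, 35.4 and 30.5 CPM in cRGCs, and this gene, which drove Cre in the iRGC line, did not separate the populations (log2 fold change 0.41 ± 0.93 (SE), edgeR adjusted p = 0.768, and -1.11 to 0.98 when single libraries were left out). The library iRGC 1 had the least Slc6a4 of all 6, although its label is that of the Slc6a4 line. Pou4f2, which drove Cre in the other line, was at 74.7, 133 and 98.3 CPM in iRGCs and 191, 196 and 293 CPM in cRGCs (log2 fold change -1.15 ± 0.23 (SE), edgeR adjusted p = 0.00424). Counts of channel genes are therefore also given without single libraries.

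Sodium channels open within a fraction of a millisecond of depolarization and carry the upstroke of the action potential. One α subunit forms the pore, and the single-pass β subunits adjust its gating, its transport to the membrane and adhesion to neighbouring cells. Calcium channels translate depolarization into calcium entry. Their α1 subunit forms the pore and gives the channel its type: L-type channels couple activity to gene expression, P/Q-, N- and R-type channels trigger transmitter release at nerve terminals, and T-type channels open near the resting potential. The α2δ and β subunits bring the pore to the membrane, and most γ genes encode TARPs, proteins that carry AMPA-type glutamate receptors to the synapse. In the embryonic retina, ganglion cells are among the first neurons to fire action potentials and the only ones that send an axon to the brain.

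Most channel genes were lower in iRGCs. Of the 40 members, 36 passed the filter on low counts. In 26 of the 36 the level fell, in 1 it rose and 9 did not pass the threshold. Among all tested genes, 46.4% passed in either direction, 23.1% fell and 23.3% rose. As DEGs, 21 members fell and 1 rose, against 11.0% and 12.1% of all tested genes. The median log2 fold change of the 36 members was -1.38, beside -0.00307 for all tested genes. In 26 members every cRGC library lay above every iRGC library (28.2% of all tested genes), and in 3 members, Scn11a, Cacna1f and Cacna2d4, the order was the opposite (27.1%). Sodium channel genes fell in 9 of 12 tested cases with a median log2 fold change of -1.92. Calcium channel genes fell in 17 of 24 cases and rose in 1, with a median of -1.16. Without iRGC 1, the library with little Slc6a4, 25 members fell and 1 rose, and without iRGC 2 the counts were likewise 25 and 1.

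**Figure D1:**
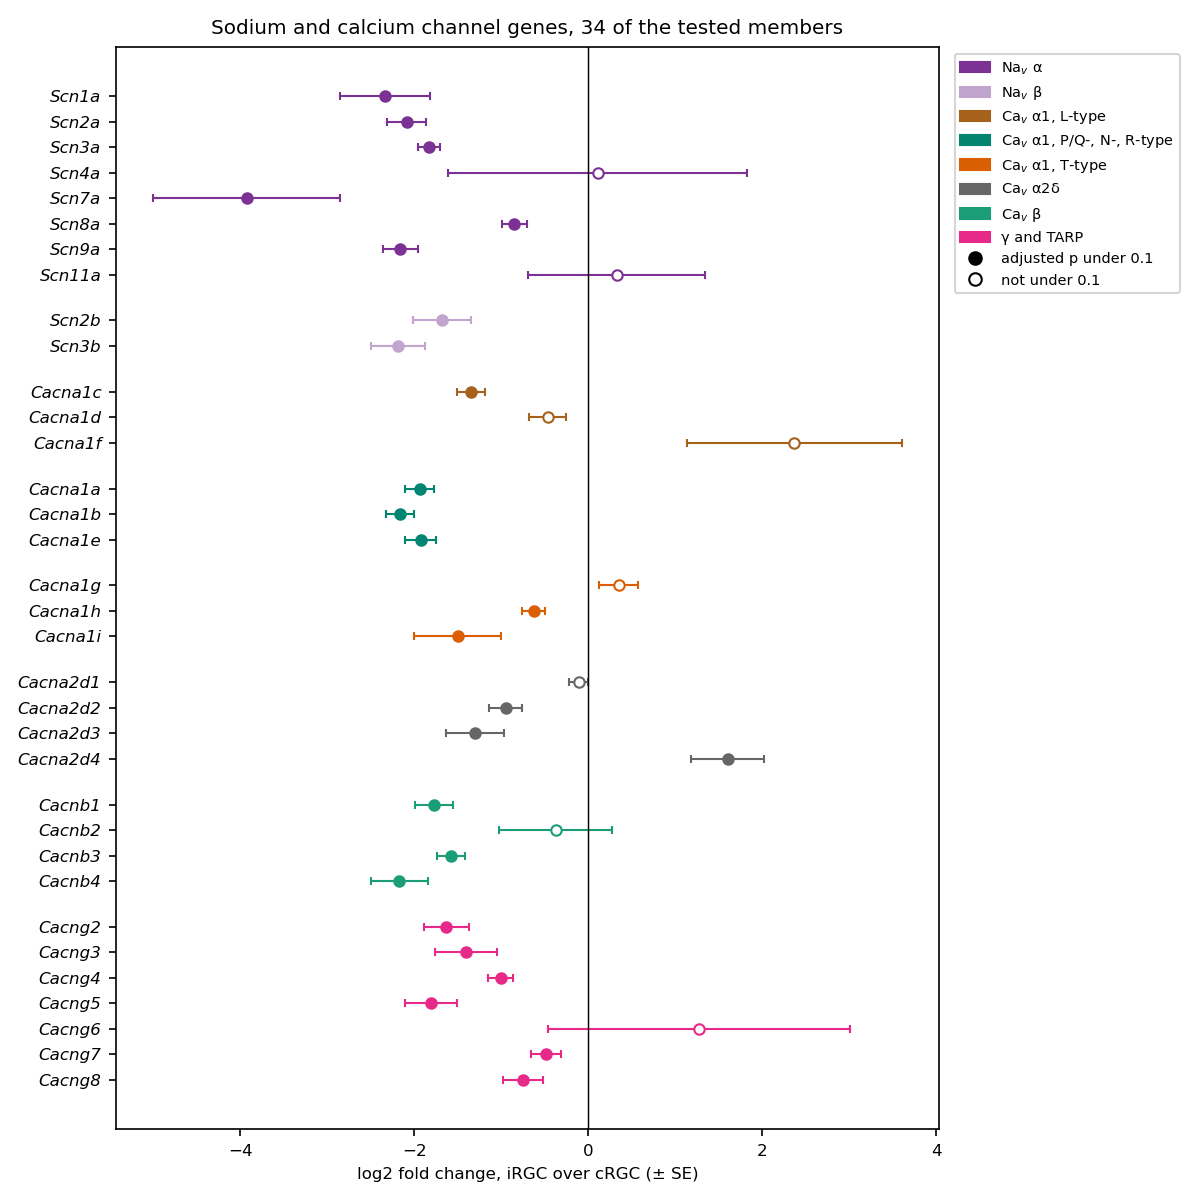
Log2 fold change of iRGCs over cRGCs (x axis) for 34 of the 36 tested channel genes (y axis), coloured by role, with bars of 1 SE. Filled points are past the threshold; 25 of them lie left of 0 and 1, Cacna2d4, lies right of it.

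Markers of cell types also differed between the populations, where 23.1% of all tested genes were lower and 23.3% higher in iRGCs. Of 16 ganglion cell markers, 15 were lower in iRGCs and none was higher, with a median log2 fold change of -1.93. Their summed level was 3540, 4873 and 7122 CPM in the iRGC libraries and 18170, 16499 and 20264 CPM in the cRGC libraries, with Tubb3 the most abundant and none of them at 0 in any library. This list includes Pou4f1 and Sncg, which the paper describes as cRGC genes, so part of it was already tied to cRGCs. Of 16 markers of retinal progenitors, 13 were higher in iRGCs and 1 was lower, with summed levels of 9521, 8936 and 7857 CPM against 2445, 3348 and 3147 CPM, with Ccnd1 leading and none at 0. Markers of neurogenic precursors were higher in 10 of 10 cases, with sums of 1628, 1830 and 1567 CPM against 324, 579 and 492 CPM, Hes6 leading and none at 0. The populations did not overlap in any of these 3 sums. In sorted bulk samples, fewer cells of a type and less RNA per cell cannot be told apart, and the part of these markers in the channel results was not tested beyond the levels relative to ganglion cell markers given near the end.

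Neuronal sodium channel genes are textbook targets of REST, a repressor that binds the RE1 element and silences neuronal genes in other cells and in progenitors. Rest itself was at 86.9, 71.2 and 60.3 CPM in iRGCs and 23.7, 20.8 and 23.5 CPM in cRGCs (log2 fold change 1.68 ± 0.16 (SE), edgeR adjusted p = 0.000212). Of 6 listed genes of the REST complex, 4 rose (Rest, its corepressor Rcor1, the histone deacetylase Hdac1 and the scaffold Sin3a) and 2 did not pass. Among all tested genes, 23.3% rose. The log2 fold changes of Rcor1, Hdac1 and Sin3a were 0.94, 0.92 and 0.67. To show where letters like the element lie, 2000 bases on each side of the start of each gene were searched on both strands of the GRCm38.p6 genome for the paired sites TTCAGCACC and GGACAGCGC, in this order and 2 bases apart, with at most 3 mismatches over their 18 letters. This search was chosen after the values were seen. It found 1 match each at 2 of the 40 members, a share of 5.0%, and at 1.22% of 21547 protein-coding genes. Both are shown 5′ to 3′ as they read on the plus strand, with capitals for letters equal to the paired sites and lower case for mismatches and for the 2 bases between them.
Scn2a: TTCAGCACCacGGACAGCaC
Cacna1b: gTCAGCACCacGGACAGCtg
The Scn2a match, at chr2:65619964-65619983, lies 798 bases upstream of the annotated gene start and equals the paired sites in 17 of 18 letters. A match with at most 1 mismatch was found at 0.2% of all coding genes. The Cacna1b match, at chr2:24762083-24762102, lies 1060 bases into the gene, in an intron and on the strand opposite to transcription, with 15 of 18 letters equal. Of the sodium channel genes, Scn2a alone had a match. A match describes letters only, and no binding was measured here. The part of REST in the channel results was not tested.

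The α subunits of sodium channels were lower in iRGCs in 7 of 9 tested cases and higher in none. Summed over the 10 genes, the level was 14.3, 18.5 and 19.6 CPM per kilobase in iRGCs and 69.5, 57.5 and 60.9 in cRGCs, which is 3.58 times as much in cRGCs. Scn3a (ENSMUSG00000057182, chr2:65457118-65567627, minus strand), the main α subunit of the embryonic brain, had the highest level per kilobase (6.04 CPM per kilobase in iRGCs and 21.4 in cRGCs). Its libraries held 65.1, 78.7 and 82.0 CPM in iRGCs and 289, 243 and 269.8 CPM in cRGCs. It fell with a log2 fold change of -1.83 ± 0.13 (SE) (edgeR adjusted p = 0.000201), and the populations stood well apart. Scn9a (ENSMUSG00000075316, chr2:66480080-66634962, minus strand), known from pain-sensing neurons, followed with 40.6, 50.1 and 71.5 CPM in iRGCs and 272, 222 and 232 CPM in cRGCs. The log2 fold change was -2.16 ± 0.20 (SE), with edgeR adjusted p = 0.000207. Scn2a (ENSMUSG00000075318, chr2:65620771-65767447, plus strand), the channel of the first axon initial segments, measured 17.3, 26.9 and 29.5 CPM in iRGCs and 128, 100.05 and 86.0 CPM in cRGCs (log2 fold change -2.09 ± 0.23 (SE), edgeR adjusted p = 0.000258). These 3 genes made up most of the α subunit level in both populations, and the lowest cRGC library lay above the highest iRGC library for each.

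Scn8a, which takes over from Scn2a at initial segments and nodes as neurons mature, had the smallest log2 fold change of the α subunits that passed. It ranged from 47.5 to 57.9 CPM in iRGCs and from 86.6 to 114 CPM in cRGCs, with a log2 fold change of -0.85 (edgeR adjusted p = 0.00173). Scn1a (ENSMUSG00000064329, chr2:66270778-66440840, minus strand), a channel of fast-spiking neurons, had 1.19, 4.67 and 6.94 CPM in iRGCs and 21.3, 19.8 and 23.8 CPM in cRGCs. It fell with a log2 fold change of -2.34 ± 0.52 (SE) (edgeR adjusted p = 0.00646), and iRGC 1 held the least. Scn7a (ENSMUSG00000034810, chr2:66673425-66784914, minus strand), which encodes a sensor of sodium concentration and not a voltage-gated pore, was near the limit of detection in iRGCs, with 0, 0.278 and 0.505 CPM in iRGCs and 4.15, 4.14 and 3.81 CPM in cRGCs. Its log2 fold change was -3.93 ± 1.07 (SE), with edgeR adjusted p = 0.0175, and without iRGC 3 the log2 fold change was -4.82. The muscle gene Scn4a (at most 0.552 CPM) and the nociceptor gene Scn11a (at most 0.547 CPM) stayed low in all libraries and did not pass, with log2 fold changes of 0.11 and 0.32. The sign of Scn4a turned when single libraries were left out. Scn10a, another nociceptor gene, had 27 counts in all, none of them in iRGCs, where a count of 0 allows up to 0.0926 to 0.0964 CPM per library, and was not tested.

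The composition of the α subunits also differed. Scn8a contributed 20.2% ± 5.13 (SD, n = 3) of the summed level per kilobase in iRGCs and 9.92% ± 0.78 in cRGCs, and its shares did not overlap. Scn9a contributed 24.0% ± 4.00 in iRGCs and 30.2% ± 0.37 in cRGCs, also without overlap, while the share of Scn3a was 34.7% ± 1.59 and 34.3% ± 1.17 and overlapped. Across the 3 iRGC libraries the share of Scn8a was 25.6%, 19.8% and 15.4%. These shares are descriptions without a test, and a share depends on all other members of its sum. The ratio of Scn2a to Scn3a, per kilobase and within each library, was 0.261, 0.335 and 0.353 in iRGCs and 0.433, 0.403 and 0.312 in cRGCs. The populations overlapped (log2 difference -0.27, exact permutation test, two-sided, p = 0.3, where 0.1 is the smallest value that 3 against 3 libraries can give).

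Of the α genes, 5 lie in one cluster on chromosome 2 between 65457118 and 66784914, a span of 1328 kb, in the order Scn3a, Scn2a, Scn1a, Scn9a and Scn7a. All 5 fell, although their levels per kilobase in cRGCs ranged from 0.550 for Scn7a to 21.4 for Scn3a. Scn2a alone is transcribed from the plus strand, and it fell like its neighbours on the minus strand.

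**Figure D2:**
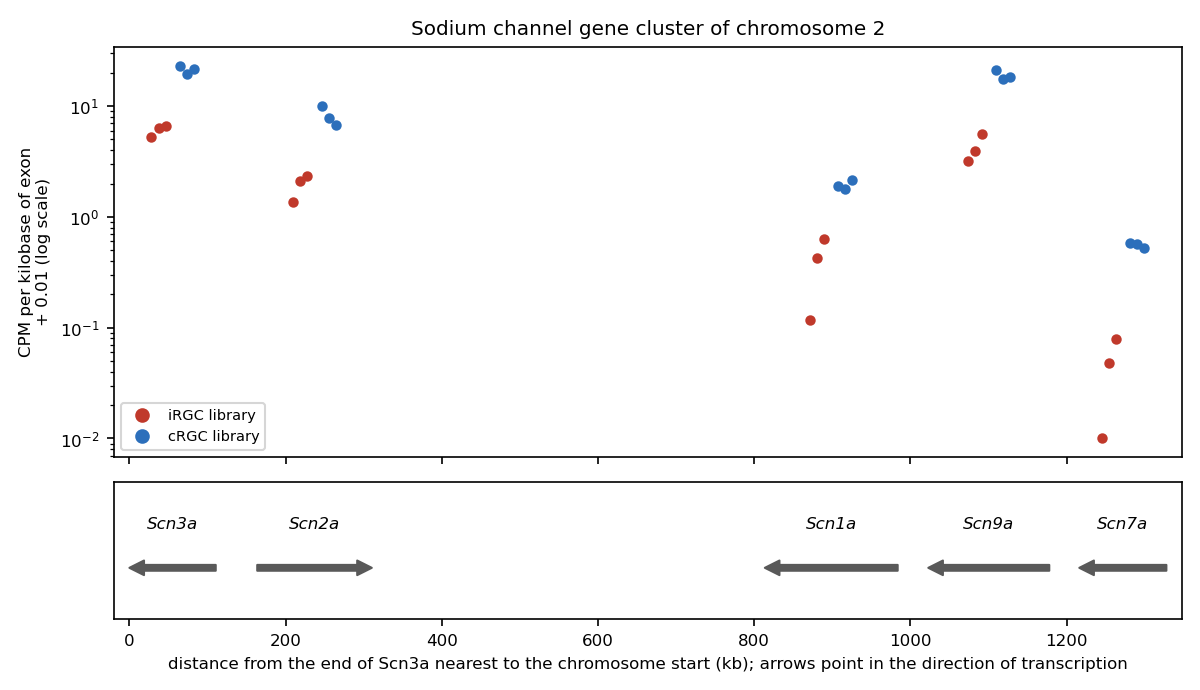
Levels of the 5 α subunit genes of the chromosome 2 cluster (CPM per kilobase of exon, plus 0.01, log scale) in each library, drawn at each gene's place (x axis, kb from the end of the cluster). In all 5 genes the 3 cRGC points lie above the 3 iRGC points; arrows show the direction of transcription.

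Among the β subunits of sodium channels, Scn3b (ENSMUSG00000049281, chr9:40269217-40291618, plus strand) had the highest level per kilobase (13.1 CPM per kilobase in iRGCs and 59.4 in cRGCs). Its libraries held 43.0, 58.2 and 113 CPM in iRGCs and 339, 304 and 329.8 CPM in cRGCs. It fell with a log2 fold change of -2.18 ± 0.31 (SE) (edgeR adjusted p = 0.000726), and iRGC 3 was the highest of the iRGC libraries. Scn2b (ENSMUSG00000070304, chr9:45117782-45130070, plus strand), which binds the α subunit through a disulphide bond, had 9.23, 3.49 and 7.41 CPM in iRGCs and 22.8, 22.8 and 19.0 CPM in cRGCs (log2 fold change -1.68 ± 0.34 (SE), edgeR adjusted p = 0.00402). Scn4b, which lies 8.32 kb from Scn2b on chromosome 9, had 0 counts in all 6 libraries. A count of 0 allows up to 3 counts, which are 0.0926 to 0.115 CPM per library here and cover counting error only.

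The pore-forming α1 subunits of calcium channels were lower in iRGCs in 6 of 9 tested cases and higher in none. Their sum was 34.0, 34.8 and 40.7 CPM per kilobase in iRGCs and 102, 90.8 and 82.9 in cRGCs, 2.52 times as much in cRGCs. The 3 genes of presynaptic channels fell together, with a median log2 fold change of -1.94. Cacna1b (ENSMUSG00000004113, chr2:24603887-24763152, minus strand), the N-type pore, was the highest of them per kilobase (8.24 CPM per kilobase in iRGCs and 37.1 in cRGCs). Its libraries held 65.5, 81.5 and 98.8 CPM in iRGCs and 410.0, 353 and 342 CPM in cRGCs. It fell with a log2 fold change of -2.17 ± 0.16 (SE) (edgeR adjusted p = 0.000201). The pore of P/Q-type channels, Cacna1a (ENSMUSG00000034656, chr8:84388440-84640246, plus strand), had 45.9, 55.0 and 64.6 CPM in iRGCs and 255, 194 and 186 CPM in cRGCs (log2 fold change -1.94 ± 0.17 (SE), edgeR adjusted p = 0.000205). Cacna1e (ENSMUSG00000004110, chr1:154390731-154884501, minus strand), the R-type pore, had 10.5, 9.55 and 8.23 CPM in iRGCs and 34.0, 39.6 and 33.7 CPM in cRGCs (log2 fold change -1.93 ± 0.18 (SE), edgeR adjusted p = 0.000205). None of these 3 genes had an iRGC library within the range of the cRGC libraries. The ratio of Cacna1a to Cacna1b per kilobase was 0.609, 0.588 and 0.569 in iRGCs and 0.541, 0.479 and 0.472 in cRGCs. Every iRGC library was above every cRGC library (log2 difference 0.25, exact permutation test, two-sided, p = 0.1, the smallest p the design allows, so this test could not pass 0.05).

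Of the 4 L-type pores, 1 fell, 2 did not pass and 1 was not tested. Cacna1c (ENSMUSG00000051331, chr6:118587240-119196418, minus strand), the L-type channel shared by heart, vessels and brain, had 22.6, 22.5 and 16.9 CPM in iRGCs and 55.8, 54.7 and 48.0 CPM in cRGCs (log2 fold change -1.35 ± 0.16 (SE), edgeR adjusted p = 0.000355). Cacna1d (ENSMUSG00000015968, chr14:30039939-30491455, minus strand), which opens at lower voltages and had the highest level per kilobase of the L-type genes (3.85 CPM per kilobase in iRGCs and 5.31 in cRGCs), had 44.3, 59.8 and 41.6 CPM in iRGCs and 85.1, 65.9 and 50.1 CPM in cRGCs. Its log2 fold change was -0.46 ± 0.21 (SE), with edgeR adjusted p = 0.120, and the populations overlapped. This call changed with the processing: the gene passed without cRGC 3 (log2 fold change -0.62, adjusted p = 0.0499), without iRGC 2 (-0.64, adjusted p = 0.0641) and without a filter on low counts (-0.47, adjusted p = 0.0755). Cacna1f, the L-type channel of photoreceptor terminals, ranged from 1.36 to 1.76 CPM in iRGCs and from 0 to 0.552 CPM in cRGCs. It did not pass in edgeR (log2 fold change 2.37 ± 1.23, adjusted p = 0.166), although its libraries did not overlap, and it passed in DESeq2 (adjusted p = 0.0768) and limma voom (adjusted p = 0.0888). Without cRGC 2 its log2 fold change was 3.12, and without cRGC 1 it was 1.79. Cacna1s, the channel of skeletal muscle, had 4 counts in all and was not tested.

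Of the T-type pores, which open after small depolarizations, 2 fell and 1 did not pass. Cacna1h (ENSMUSG00000024112, chr17:25374285-25433783, minus strand) had the highest level per kilobase of the type (14.1 CPM per kilobase in iRGCs and 21.8 in cRGCs). Its libraries held 145, 116 and 152 CPM in iRGCs and 219.7, 230.4 and 188 CPM in cRGCs. It fell with a log2 fold change of -0.63 ± 0.13 (SE) (edgeR adjusted p = 0.00557), and its libraries did not overlap. Cacna1g, a T-type channel of thalamic relay neurons, ranged from 25.3 to 30.7 CPM in iRGCs and from 15.4 to 26.3 CPM in cRGCs and did not pass (log2 fold change 0.35 ± 0.23, adjusted p = 0.26). Scaled by library totals alone, which moved the median of all tested genes by 0.21 on the log2 scale, it was called higher with a log2 fold change of 0.55 (adjusted p = 0.0839). Cacna1i (ENSMUSG00000022416, chr15:80287238-80398279, plus strand), the slowest of the T-type channels, had 3.47, 10.3 and 19.6 CPM in iRGCs and 30.3, 27.0 and 37.4 CPM in cRGCs. For this gene the log2 fold change was -1.50 ± 0.50 (SE), with edgeR adjusted p = 0.0395, but the call was lost without cRGC 3 (adjusted p = 0.106) or iRGC 2 (adjusted p = 0.113). Without iRGC 3, its log2 fold change was -2.20.

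The types of α1 subunit stood in different proportions, given here without a test. T-type pores made up 49.5% ± 4.74 (SD, n = 3) of the α1 level per kilobase in iRGCs and 29.7% ± 2.19 in cRGCs. P/Q-, N- and R-type pores made up 36.7% ± 3.68 in iRGCs and 61.9% ± 2.09 in cRGCs. L-type pores made up 13.9% ± 3.39 and 8.46% ± 0.81. None of these 3 shares overlapped between the populations. Together they make up the whole α1 level, so they are not separate results. A higher share is not a higher level, and no α1 gene was called higher in the main fit. Of single genes, Cacna1h took the largest share in iRGCs, 38.7% ± 4.79, and Cacna1b the largest in cRGCs, 40.3% ± 1.25. Shares are ratios within a library and do not depend on scaling between libraries.

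**Figure D3:**
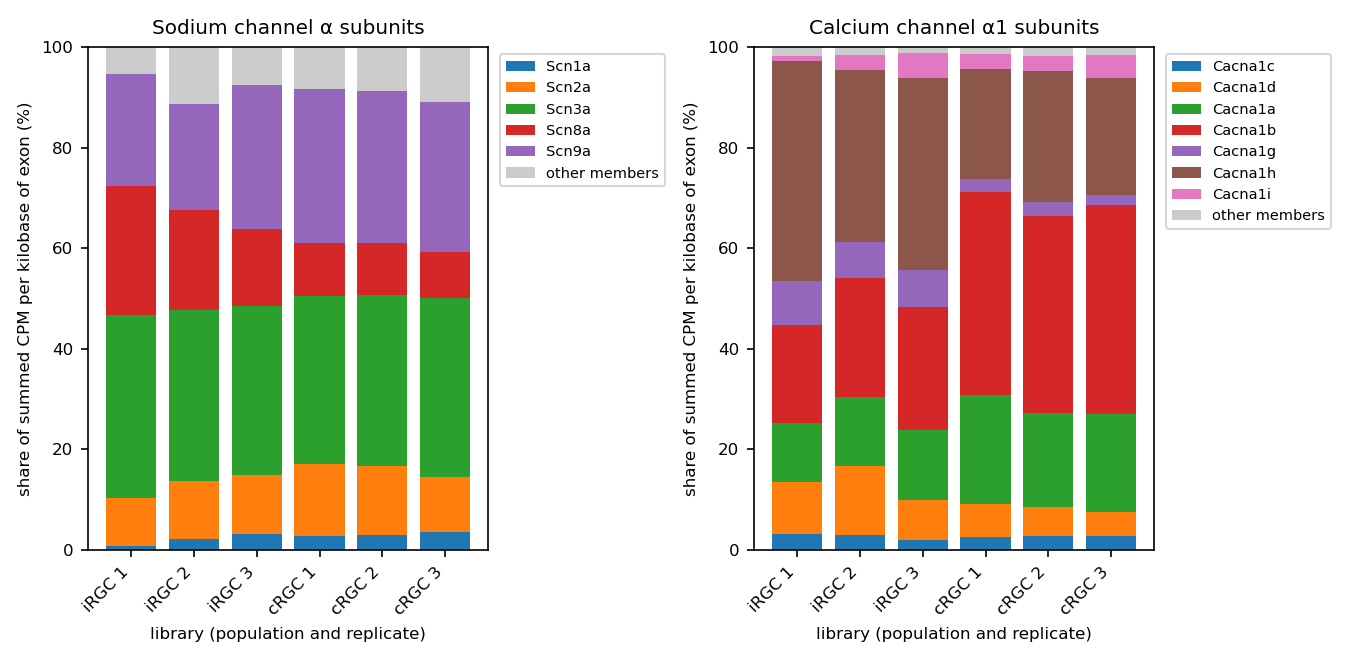
Share (%) of each gene in the summed CPM per kilobase of sodium channel α subunits (left) and calcium channel α1 subunits (right), 1 bar per library. Scn8a takes 15.4% to 25.6% in iRGCs and 9.02% to 10.5% in cRGCs, and Cacna1b 19.4% to 24.4% in iRGCs and 39.1% to 41.6% in cRGCs.

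The α2δ subunits moved in different directions. Cacna2d1 (ENSMUSG00000040118, chr5:15934691-16374511, plus strand), a receptor for the drug gabapentin and the gene with the highest mean level per kilobase of this role (8.14 CPM per kilobase in iRGCs and 8.77 in cRGCs), had 107, 104 and 91.3 CPM in iRGCs and 114, 104 and 109 CPM in cRGCs. The log2 fold change was -0.11 ± 0.11 (SE), with edgeR adjusted p = 0.478, the libraries overlapped, and with scaling by library totals alone the value was 0.10. Cacna2d2, another gabapentin receptor, ranged from 33.6 to 51.2 CPM in iRGCs and from 67.5 to 92.8 CPM in cRGCs and fell (log2 fold change -0.95, edgeR adjusted p = 0.00399). Cacna2d3 (ENSMUSG00000021991, chr14:28904943-29721864, minus strand), known from synapses and hearing, had 16.3, 11.2 and 9.87 CPM in iRGCs and 19.3, 27.0 and 45.9 CPM in cRGCs. Its log2 fold change was -1.30 ± 0.33 (SE), with edgeR adjusted p = 0.0128, with the highest cRGC value in replicate 3, without which the log2 fold change was -0.88 (adjusted p = 0.0639). Cacna2d4 (ENSMUSG00000041460, chr6:119236526-119352407, plus strand), which serves photoreceptor terminals together with Cacna1f, was the only channel gene that rose. It had 8.59, 7.14 and 10.1 CPM in iRGCs and 1.46, 3.31 and 3.71 CPM in cRGCs (log2 fold change 1.60 ± 0.42 (SE), edgeR adjusted p = 0.0145). Every iRGC library lay above every cRGC library, and the gene was called higher in every alternative that was run. The sum over the 4 α2δ genes was 1.45 times as high in cRGCs, the smallest ratio among the 5 subunit families summed here (sodium α and calcium α1, α2δ, β and γ).

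Markers of photoreceptor precursors were also mostly higher in iRGCs. Of 8 such genes, 7 were tested, 6 were higher in iRGCs (23.3% of all tested genes) and 1, Rxrg, was lower (23.1%). Their sum was 1101, 869 and 901 CPM in iRGCs and 227, 338 and 274 CPM in cRGCs, with Neurod1 the most abundant, while Rcvrn, a protein of mature photoreceptors, was at 0 in all libraries but cRGC 3, where it was at 0.129 CPM. This rise was not particular to photoreceptor precursors. Markers of retinal progenitors (13 of 16), neurogenic precursors (10 of 10), cycling cells (8 of 8), amacrine cells (8 of 10) and endothelial cells (7 of 7) were also higher. Horizontal cell markers were higher in 1 of 5 cases, and further lists are given at the end. The part of photoreceptor precursors or of other cell types in the Cacna2d4 result was not tested. Cacna2d4 and Cacna1c are neighbours on chromosome 6, 40.1 kb apart and transcribed away from each other, with Cacna1c from the minus strand. Cacna1c fell and Cacna2d4 rose, so the direction was not shared across this pair.

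The β subunits, which sit inside the cell and hold the pore at the membrane, fell in 3 of 4 cases. Cacnb3 (ENSMUSG00000003352, chr15:98630840-98644529, plus strand) had the highest level per kilobase (35.9 CPM per kilobase in iRGCs and 107 in cRGCs). There were 117, 135 and 179.8 CPM in iRGCs and 473, 406 and 409 CPM in cRGCs (log2 fold change -1.58 ± 0.16 (SE), edgeR adjusted p = 0.000241). It contributed 75.9% ± 1.95 (SD, n = 3) of the summed β subunit level in iRGCs and 72.6% ± 0.57 in cRGCs. Cacnb1 (ENSMUSG00000020882, chr11:98001508-98023034, minus strand), the β subunit of skeletal muscle and also of neurons, had 34.3, 42.2 and 64.8 CPM in iRGCs and 181, 148 and 154 CPM in cRGCs (log2 fold change -1.78 ± 0.22 (SE), edgeR adjusted p = 0.000423). Cacnb4 (ENSMUSG00000017412, chr2:52428320-52676831, minus strand), a β subunit of cerebellar and other neurons, had 7.20, 6.61 and 13.2 CPM in iRGCs and 49.8, 45.3 and 26.9 CPM in cRGCs. Its log2 fold change was -2.17 ± 0.33 (SE), with edgeR adjusted p = 0.000989, but 16.0% of its exonic bases are shared with A430018G15Rik, and the sources used here do not say whether the counting used strand. The next largest such share among tested members was 7.32%, in Cacnb2. Cacnb2, the β subunit of heart muscle, ranged from 0.836 to 5.44 CPM in iRGCs and from 3.15 to 4.38 CPM in cRGCs and did not pass (log2 fold change -0.38, and 0.06 without iRGC 1). The sum over the 4 β genes was 3.10 times as high in cRGCs.

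The γ genes fell in 6 of 7 tested cases, all 6 of them TARPs. Cacng4 (ENSMUSG00000020723, chr11:107732357-107794557, minus strand) had the highest level per kilobase of all 40 members (72.2 CPM per kilobase in iRGCs and 145 in cRGCs). Its libraries held 241, 216 and 317 CPM in iRGCs and 538, 482 and 538 CPM in cRGCs. It fell with a log2 fold change of -1.01 ± 0.15 (SE) (edgeR adjusted p = 0.000862). Cacng2 (ENSMUSG00000019146, chr15:77991748-78120028, minus strand), stargazin, the first TARP to be described, had 18.7, 18.2 and 36.4 CPM in iRGCs and 80.5, 70.8 and 75.2 CPM in cRGCs (log2 fold change -1.63 ± 0.26 (SE), edgeR adjusted p = 0.00126). Cacng5 (ENSMUSG00000040373, chr11:107874605-107915055, minus strand), a type II TARP, had 18.8, 27.1 and 46.7 CPM in iRGCs and 123, 112 and 89.6 CPM in cRGCs (log2 fold change -1.81 ± 0.30 (SE), edgeR adjusted p = 0.00150). These 3 genes showed no overlap between the populations. The close relative of stargazin, Cacng3 (ENSMUSG00000066189, chr7:122670492-122769393, plus strand), had 10.5, 11.4 and 25.2 CPM in iRGCs and 31.0, 39.8 and 54.0 CPM in cRGCs. Here the log2 fold change was -1.41 ± 0.35 (SE), with edgeR adjusted p = 0.0120. Cacng7, a type II TARP, and Cacng8, a TARP of the hippocampus, fell with log2 fold changes of -0.49 (adjusted p = 0.0496) and -0.75 (adjusted p = 0.0301), and ranged from 65.6 to 108 CPM against 112 to 128 CPM and from 10.3 to 10.4 CPM against 13.0 to 21.4 CPM. Both calls depended on single libraries: Cacng7 was lost without cRGC 2 (adjusted p = 0.114), iRGC 1 (0.109) or iRGC 2 (0.129) and with library totals (0.167), and Cacng8 without cRGC 2 (0.163) or cRGC 3 (0.101). Cacng6, a true calcium channel γ subunit of muscle type, reached 1.08 CPM at most and did not pass (log2 fold change 1.27, and -0.07 without iRGC 2). Its relative Cacng1 had 26 counts in all and was not tested. All 4 AMPA receptor subunit genes, whose proteins the TARPs carry, also fell, beside 23.1% of all tested genes. The log2 fold changes of these subunit genes were -2.39 for Gria1, -1.90 for Gria2, -1.42 for Gria4 and -0.79 for Gria3. The Gria3 call was lost without cRGC 1 (adjusted p = 0.104), cRGC 2 (0.194), cRGC 3 (0.100) or iRGC 2 (0.114).

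**Figure D4:**
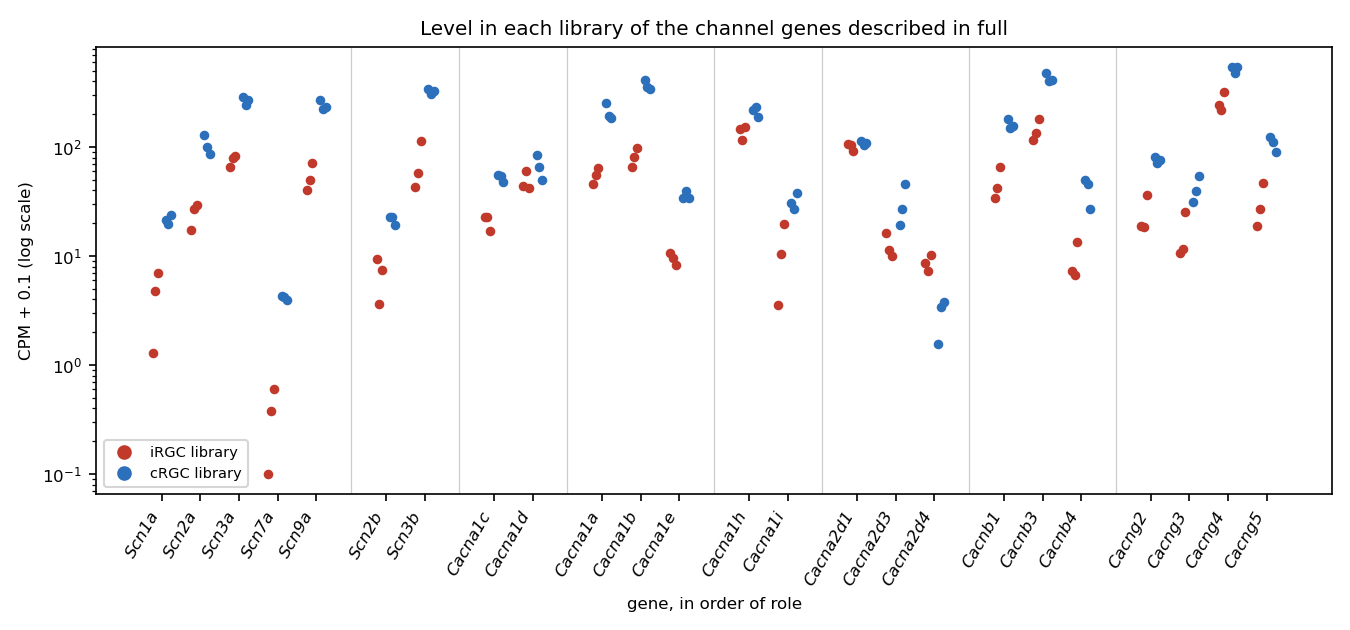
Level (CPM + 0.1, log scale) in each iRGC and cRGC library of the 24 channel genes given in full, in order of role with lines between roles. The cRGC points lie above the iRGC points except in Cacna2d4, where the order is reversed, and in Cacna1d and Cacna2d1, where they mix.

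Of 12 genes listed as sodium channel partners, 9 fell in RNA and none rose, beside 23.1% and 23.3% of all tested genes. The largest log2 fold changes among them were those of Sptbn4 (-2.45), the spectrin of initial segments, Fgf12 (-2.19), an intracellular factor that binds the channel's tail, and Nfasc (-1.96), the adhesion protein neurofascin. Without iRGC 3 the log2 fold change of Sptbn4 was -3.20. The median over the list was -0.92. Ank3, chosen after its values were seen and whose product ankyrin-G gathers the channels at the initial segment, fell by 1.05 on the log2 scale. Of 18 tested genes for calcium channel partners, 11 fell and 1 rose, beside the same shares of all tested genes, with a median of -1.02. Rims1 (-2.001) and Rimbp2 (-1.89), which tether calcium channels to release sites, led the genes that fell. Gem, a small GTPase that inhibits calcium channels, rose from 1.96, 1.28 and 0.807 CPM in cRGCs to 8.30, 7.08 and 11.7 CPM in iRGCs (log2 fold change 2.74 ± 0.45 (SE), edgeR adjusted p = 0.00146). Genes that respond to tissue dissociation were also higher in iRGCs in 7 of 10 cases, with sums of 1657, 3147 and 1263 CPM against 574, 669 and 714 CPM, Fos the most abundant and Hspa1a at 0 in iRGC 1, and their part in the Gem result was not tested. Among 9 related cation channel genes, 5 fell and 2 rose, beside 23.1% and 23.3% of all tested genes, so the number that rose was near the background. Hcn2 (-2.05) and Hcn3 (-1.58), pacemaker channels, and Unc79 (-1.49), a partner of the sodium leak channel, changed most, while the genes that rose were Unc80, which works with Unc79 (0.86), and the endolysosomal channel Tpcn1 (0.52), both named after their values were seen. Without iRGC 3 the log2 fold change of Hcn2 was -2.85. Hcn3 shares 17.1% of its exonic bases with Pklr, and the strand setting of the counting is not known here. The Tpcn1 call was lost without cRGC 1 (adjusted p = 0.116), cRGC 2 (0.136), cRGC 3 (0.106) or iRGC 2 (0.158).

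Since ganglion cell markers moved with the channels, each level was also divided by the geometric mean CPM of the 16 ganglion cell markers in the same library, a measure chosen after the values were seen and given without a test. The markers include Pou4f1 and Sncg, which the paper describes as cRGC genes, so the denominator does not treat both populations alike. On this scale, 78.8% of all tested genes were above in every iRGC library and 1.0% were above in every cRGC library, since the denominator itself was lower in iRGCs. Of the 36 tested members, 18 overlapped between the populations, 13 were above in iRGCs and 5, Scn1a, Scn7a, Scn9a, Scn3b and Cacna1b, were above in cRGCs. Cacnb1, for example, stood at 23.1%, 23.4% and 23.4% of the marker level in iRGCs and 23.4%, 21.5% and 22.4% in cRGCs. Cacna1a stood at 30.9%, 30.5% and 23.3% against 32.9%, 28.1% and 27.0%. Cacna1b was lower in iRGCs on this scale too, with 44.1%, 45.2% and 35.7% against 53.0%, 51.1% and 49.7%. On the other side, Cacna2d1 stood at 72.2%, 57.9% and 33.0% in iRGCs and 14.8%, 15.0% and 15.8% in cRGCs, and Scn8a at 38.8%, 32.1% and 17.1% against 14.8%, 13.5% and 12.6%. Cacna1h likewise was above in iRGCs, with 97.6%, 64.2% and 54.9% against 28.4%, 33.4% and 27.3%. In these 3 genes iRGC 3 had the lowest relative value. Its denominator was the highest of the iRGC libraries (277 CPM, against 148 and 180 CPM in iRGCs 1 and 2). For genes with similar CPM in these libraries, the division alone gives this order.

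**Figure D5:**
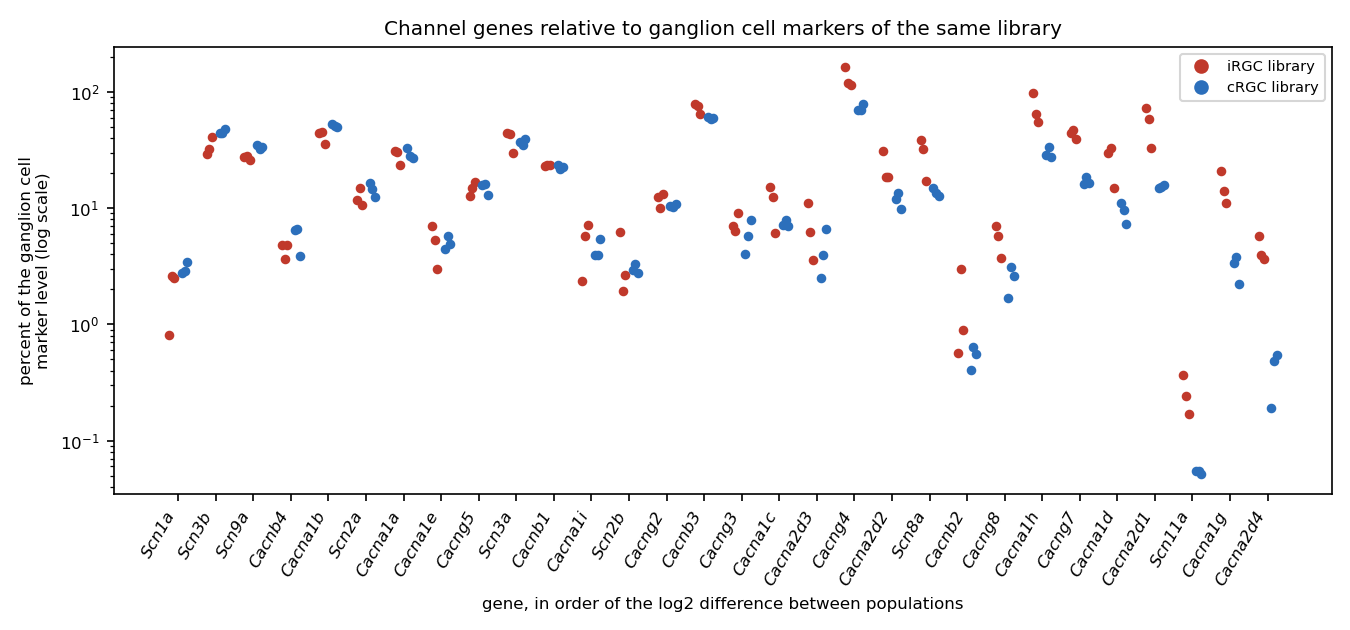
Level of 30 channel genes as a percentage of the geometric mean of the ganglion cell markers in the same library (y axis, log scale), ordered from the lowest to the highest log2 difference of iRGCs over cRGCs. Points of both populations mix in the middle of the plot, as for Cacnb1, while Cacna1g and Cacna2d4 at the right end lie higher in iRGCs.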

How the data were processed

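RNA-seq libraries of sorted iRGCs and cRGCs were analysed, 3 of each; the 13 ATAC-seq samples were not analysed here. According to the methods and the submitters' processing notes, the authors mapped reads to mm10 with HISAT2 2.1.0 at default settings and deposited HTSeq 0.11.1 counts per gene of Ensembl 89 for GRCm38, without normalization. The strand setting is not given in the sources used here. Reads overlapping no gene, 12.3% to 23.2% of uniquely aligned reads, stayed out of library sizes, and 0 columns of per-sample values were left unused. Symbols, positions and exon lengths came from GENCODE M21 (46574 of 47069 identifiers matched) and sequences from GRCm38.p6.

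Counts were tested with edgeR 4.0.16 in R 4.3.3 (filterByExpr, TMM factors of 0.921 to 1.10, quasi-likelihood test without a block, two-sided, Benjamini-Hochberg over 15941 genes). The biological coefficient of variation was 36.3%. SEs were obtained from the log2 fold change and the F statistic (size over root of F). Fits were tested on simulated data. The alternatives were other scaling factors, DESeq2 1.42.0, limma 3.58.1 voom, other filters and thresholds, protein-coding genes alone, a replicate block and leaving out each library. The geometric mean of a marker list used a pseudocount of 0.5 CPM. Given in full were, per role, the member with the highest mean level per kilobase, and all DEGs with a mean of at least 1 CPM; of partner lists, the 3 largest changes past the threshold. Values of 2 members are not reported here singly, but both are in the counts, medians and sums. Members and lists were chosen with earlier results of these data known. Plots used Python 3.11.15 with matplotlib 3.10.9.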

Additional observations from a re-analysis of the deposited data

How the results depend on the processing

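Members called lower, 26 in the main fit, numbered 24 to 26 when single libraries were left out and 21 to 27 under other alternatives. Cacna1d was added to them without cRGC 3, without iRGC 2 and without a filter on low counts. Of the 26, 23 passed in every fit that tested them, while Cacna1i, Cacng7 and Cacng8 did not. Requiring at least 10 counts in every library left 31 members to test, without Scn7a among others. The rising members numbered 2 in place of 1 with the DESeq2 test and limma voom (Cacna1f added) and with library totals (Cacna1g added). Library totals moved the median of all genes by 0.21 (log2) and the share of higher calls from 50.1% to 64.2%, with 25 members lower, and turned Cacna2d1 to 0.10. DESeq2 gave no adjusted p for 2 members. With the fold change threshold, 1758 genes fell and 1930 rose in place of 3688 and 3707, as the stricter rule calls fewer. Log2 fold changes of genes that did not pass changed sign without single libraries, over ranges of -0.49 to 1.25 for Scn4a (-0.0086 without cRGC 3, -0.33 without iRGC 2 and -0.27 without iRGC 3), -1.18 to 0.061 for Cacnb2 and -0.067 to 2.16 for Cacng6; the cause was not tested. Of 572 values of single members under alternatives, 546 kept their direction and call. When single libraries were left out, the log2 difference ranged from -0.42 to -0.14 for Scn2a to Scn3a and from 0.21 to 0.31 for Cacna1a to Cacna1b. Same-numbered libraries did not deviate together (correlations of -0.014, -0.045 and -0.067), and with a replicate block 26 members fell and 1 rose, as did 3435 and 3316 of all genes. At this depth, 4 members, with 0 to 27 counts in all, fell under the filter and were not tested.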

Other observations

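Cycling genes were higher in iRGCs in 8 of 8 cases, with Top2a the most abundant. Among all tested genes, 23.3% were higher and 23.1% lower in iRGCs. Amacrine markers were higher in 8 of 10 cases and lower in 1, microglial markers higher in 4 of 6 and mural markers in 4 of 6. Horizontal cell markers were higher in 1 of 5 cases, near the share of all tested genes. Of 7 tested endothelial markers all were higher in iRGCs, with sums of 470, 724 and 436 CPM against 89.2, 109 and 72.0 CPM, Kdr the most abundant, and Cdh5 and Tie1 at 0 in all cRGC libraries. Erythroid markers were higher in 4 of 4 cases, and their sum was 92.7 CPM in iRGC 2 against 12.2 and 15.3 CPM in the other iRGC libraries. Markers of skeletal muscle and of pigment epithelium passed in 0 of 3 and 0 of 4 cases, and those of glia in 1 of 3, which was lower. Of all tested genes, 46.4% passed in either direction. Of 6 genes of ipsilateral ganglion cells, Zic2, Zic1 and Zic5 were higher and the others did not pass.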
